A study of Homo sapiens with 16 samples.

Results

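HCC70, an established human breast cancer cell line of the basal-like type, was compared after knockdown of either of 2 core subunits of one repressive complex, EZH2 and EED. The members were all transcript clusters (array features that sum the probes along a transcript) with a log2 signal of 6 or above on at least 2 of the 16 arrays of the study. Of 33297 clusters, 16175 met this floor and 17122 did not. The changes described are those shared by both knockdowns, those sorted to 1 subunit only by the rule below, and the difference between the changes.

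The comparison used 8 arrays in 4 groups of 2. HCC70 cells stably infected with shRNA against EZH2 (shEZH2) were set against scrambled shRNA arrays 1a and 2a, here called set a. HCC70 cells stably infected with shRNA against EED (shEED) were set against scrambled shRNA arrays 1b and 2b, called set b. The sources used here do not state outright which scrambled set belongs to which knockdown. Another pair of HCC70 arrays, infected with the empty plKO Puro vector, completed 6 HCC70 control arrays. The remaining arrays were HCC70 with EZH2 cDNA, and MDA-MB-468, a second basal-like line, with scrambled shRNA or with shEZH2, 2 arrays each. All cells, controls included, were exposed to virus with polybrene at 6 µg/ml and selected with puromycin at 1 µg/ml from 48 hours after infection. The hairpin sequences, the number of hairpins per gene and whether duplicates were separate cultures were not stated in the labels. The p-values therefore measure the spread between duplicate arrays, which may be technical.

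EZH2 is the enzyme of Polycomb repressive complex 2 (PRC2), which methylates lysine 27 of histone H3 at silent genes. EED binds that mark and keeps the complex assembled and active, and it also serves complexes that hold EZH1, the related enzyme, in place of EZH2. Knockdown of either subunit addresses the same complex at a different point. Polycomb targets in many cells are developmental regulators with CpG-rich promoters.

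Values are log2 RMA signals, so a difference of 1 is a 2-fold difference in signal. Array medians lay between 5.37 and 5.53, and duplicates correlated at 0.994 to 0.997 over all clusters. The epithelial keratins KRT5 and KRT8 were far above the floor in HCC70, at group means of 12.58 to 13.12 and 11.78 to 12.55 in the knockdown, scrambled and empty vector groups. Of markers of other cell types, 1 of 9 fibroblast genes (COL1A1, highest 7.56), 1 of 7 endothelial genes (CLDN5, highest 6.39) and 1 of 8 measured blood cell genes (CD68, highest 9.86) reached the floor on an HCC70 array. None of these 3 was called in either knockdown comparison. CSF1R, a blood cell gene that met the floor through MDA-MB-468, was called higher with shEZH2 (0.35, from a group mean of 4.98 to 5.34), below the floor in both HCC70 groups. In RNA from a whole culture, a change in every cell and a change in the share of cells of a kind cannot be told apart.

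The targeted transcripts fell in the cells labelled for them. EZH2 signal was 10.01 and 9.998 in set a and 8.50 and 8.58 with shEZH2, a change of -1.47 (SE 0.07, adjusted p = 3.35e-07 by limma). EED signal was 8.35 and 8.31 in set b and 7.54 and 7.49 with shEED, a change of -0.82 (SE 0.11, limma adjusted p = 3.47e-04). Both pairs of knockdown arrays lay below all 6 control arrays. With shEZH2, EED signal was 8.62 and 8.58 against 8.77 and 8.67, a change of -0.12 that was not called (limma adjusted p = 0.532). With shEED, EZH2 signal was 9.86 and 9.81 against 10.08 and 10.06, a change of -0.24 (SE 0.07, limma adjusted p = 0.0456). That small fall was lost when any 1 of the shEED or scrambled arrays was left out, with values from -0.21 to -0.26. The difference between the 2 knockdowns' effects on EED, 0.71 (limma adjusted p = 0.0157), lost its call without set a array 2, set b array 1 or 2, or shEED array 1 or 2, with values from 0.65 to 0.73.

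Other PRC2 subunits did not pass the test in either comparison. SUZ12, the scaffold of the complex, changed by -0.03 with shEZH2 and 0.01 with shEED. EZH1 changed by 0.26 and 0.02, and JARID2, an accessory subunit, by 0.03 and -0.27. Of the 12 PRC2 genes tested, EZH2 alone was called with shEZH2, and EZH2 and EED were called with shEED. Protein levels were not measured.

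**Figure D1:**
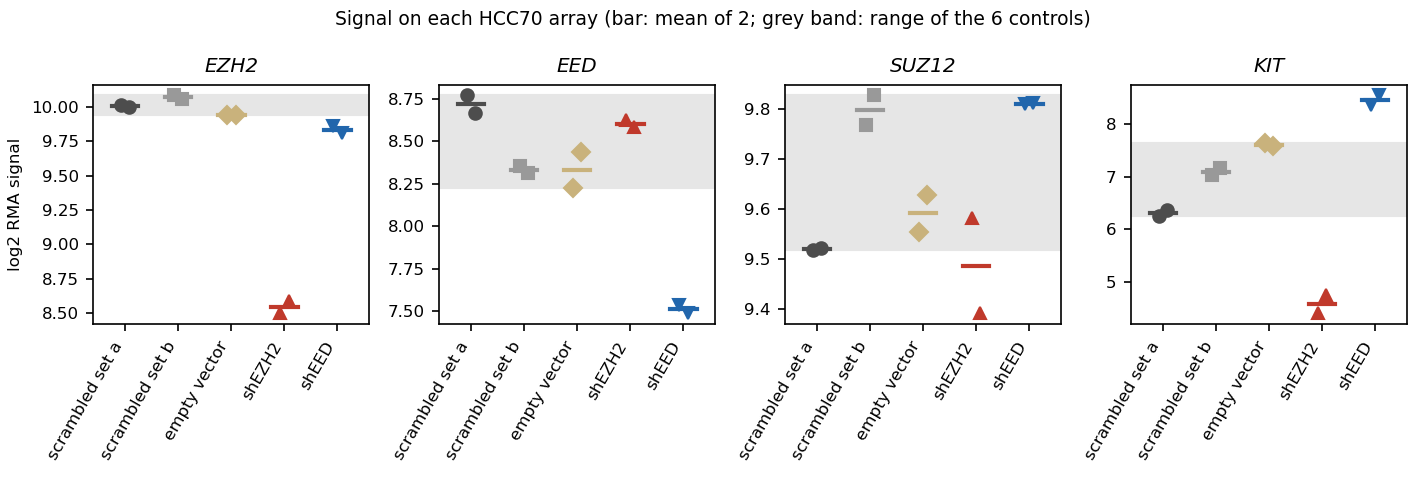
Log2 RMA signal of EZH2, EED, SUZ12 and KIT (vertical axes, each with its own range) on each of the 10 HCC70 arrays of 5 groups (horizontal axis); points are arrays, bars are means of 2 and grey bands span the 6 control arrays. EZH2 lay at 8.50 and 8.58 only with shEZH2 and EED at 7.54 and 7.49 only with shEED, while KIT lay below the band with shEZH2 and above it with shEED.

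Each knockdown changed many clusters against its own scrambled set. With shEZH2, 1837 clusters were called at an adjusted p under 0.05 (11.4% of those tested), of which 1181 were higher (7.3%) and 656 lower (4.06%). With shEED, 2290 were called (14.2%), of which 1072 were higher (6.63%) and 1218 lower (7.53%). The called changes leaned upward with shEZH2 and slightly downward with shEED here, but the lean moved with the control set. With both scrambled sets as the control, 1472 of 3048 shEZH2 calls and 2731 of 4465 shEED calls were higher. With the sets swapped these were 1834 of 4325 and 3684 of 5940. Against their own sets, both comparisons called 274 clusters higher and 278 lower. These 552 were 30.0% of the shEZH2 calls and 24.1% of the shEED calls. Another 105 clusters were called higher with shEZH2 and lower with shEED, and 22 the other way. Across all tested clusters the changes correlated at r = 0.285, a description over clusters that share arrays and are not independent. Without set a array 1 or 2 the shEZH2 calls numbered 767 or 688. Without set b array 1 or 2, or shEED array 1 or 2, the shEED calls numbered 1013, 1047, 1128 or 1062.

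The difference of differences, that is the shEZH2 change minus the shEED change, was called in 1021 clusters (6.31%), 704 higher (4.35%) and 317 lower (1.96%). The scrambled sets themselves differed in 3677 clusters (22.7%), 1198 higher in set a (7.41%) and 2479 lower (15.3%). A difference of changes can therefore come with a difference between knockdown arrays, between control sets, or both. Of the 1021 clusters, 727 (71.2%) were also called the same way when the shEZH2 arrays were compared directly with the shEED arrays. That direct comparison called 5169 clusters (32%), 2123 higher (13.1%) and 3046 lower (18.8%). Another 44 of the 1021 were called the opposite way directly, and 250 were not called, of which 242 differed between set a and set b. The count of 1021 fell to 598 and 516 without set a array 1 and 2, to 461 and 494 without set b array 1 and 2, and to 506 and 553 without shEED array 1 and 2.

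Changes were then sorted into 4 kinds. A shared change was called the same way under both knockdowns with all 4 knockdown arrays beyond the range of the 6 HCC70 controls. A change with 1 subunit was called against its own set, lay beyond that range on both of its arrays, had neither array of the other knockdown beyond it on that side, and was called in the difference of changes and in the direct comparison. An opposite change was called in both knockdowns in opposite directions, with each pair beyond the range on its own side. There were 280 shared clusters, 143 higher (0.884%) and 137 lower (0.847%). There were 179 with EZH2 only, 130 higher (0.804%) and 49 lower (0.303%), and 296 with EED only, 132 higher (0.816%) and 164 lower (1.01%). Opposite changes numbered 54, with 46 higher (0.284%) and 8 lower (0.0495%) with shEZH2. These counts follow from the calls, so they describe the kinds and are no further test.

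The range alone was passed more often than the full rule. Both shEZH2 arrays lay above all 6 controls in 12.1% of clusters and below them in 9.26%. For shEED the shares were 20.3% and 11.2%. All 4 knockdown arrays lay above the controls in 3.84% of clusters and below them in 2.08%. At the edge of the rule, the margin beyond the range was -3.4e-05 log2 units for SEMA3E, just outside the rule, and 0.0022 for ALDH18A1, just inside it. Leaving out 1 array moved the counts. Shared changes numbered 173 and 175 without set a array 1 and 2, 162 and 178 without set b array 1 and 2, and 180 without shEED array 2. EZH2-only changes numbered 88 and 81 without the set a arrays, 104 and 107 without the set b arrays, 115 without shEED array 2, 109 without shEED array 1, and 286 without shEZH2 array 2. EED-only changes numbered 190 and 170 without the set a arrays, 124 and 129 without the set b arrays, and 126 and 149 without the shEED arrays. Opposite changes numbered 30 and 34, 24 and 28, and 29 and 30 in the same order, and 87 without shEZH2 array 2.

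**Figure D2:**
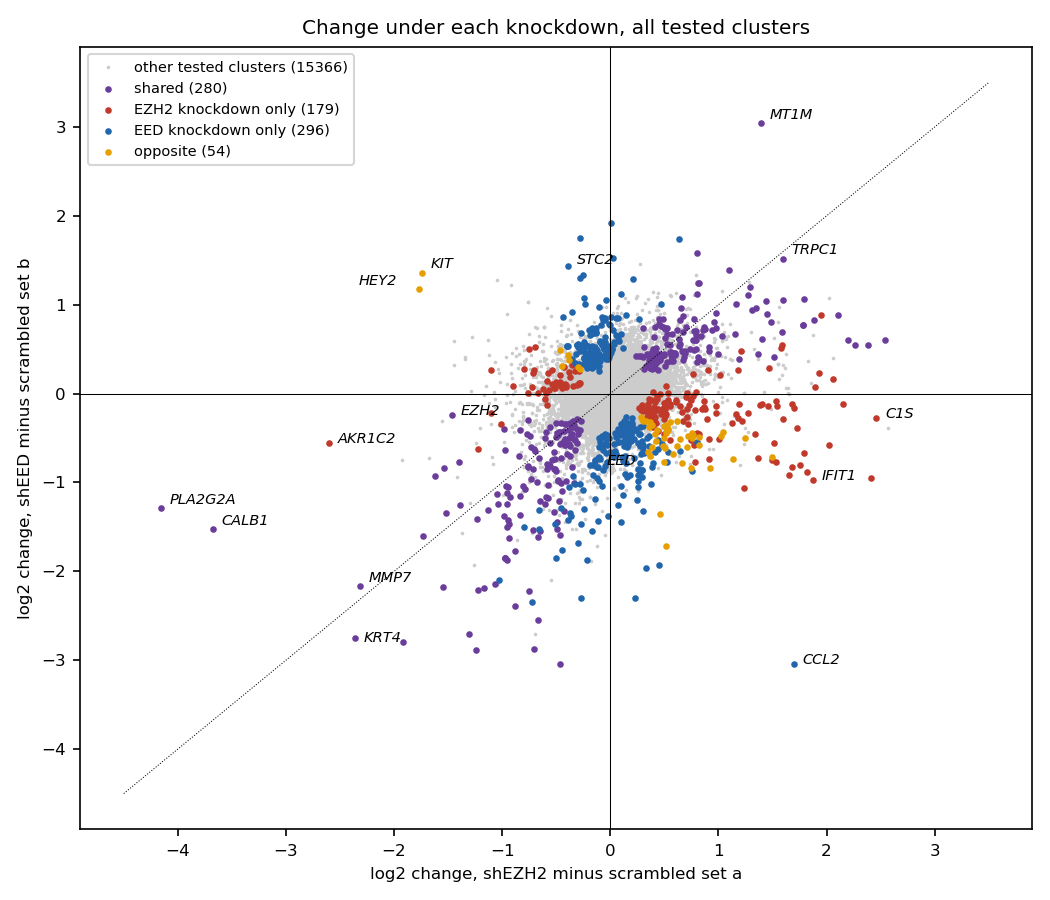
Log2 change with shEZH2 against set a (horizontal) and with shEED against set b (vertical) for the 16175 tested clusters, coloured by kind of change with the count of each in the key; the dotted line marks equal change. Shared changes lie at the lower left and upper right, KIT and HEY2 lie far out at the upper left, and CCL2 lies far out at the lower right.

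Of the shared falls ranked by the smaller of the 2 changes, KRT4 and MMP7 came first. KRT4, a keratin of stratified mucosal epithelium, had a signal of 10.47 and 10.42 in set a and 8.14 and 8.03 with shEZH2, and of 10.16 and 10.12 in set b and 7.46 and 7.33 with shEED. Its changes were -2.36 (SE 0.09) and -2.75 (SE 0.09), with limma adjusted p-values of 2.7e-08 and 4.63e-09. Relative to the lowest control, the nearer array of each knockdown lay at -1.75 and -2.44. MMP7, a secreted matrix metalloproteinase, went from 9.39 and 9.57 to 6.95 and 7.37 with shEZH2 and from 9.06 and 9.10 to 6.92 and 6.90 with shEED. The empty vector arrays were already lower for MMP7, at 7.89 and 8.05, and all 4 knockdown arrays lay below them. SLC34A2, a sodium and phosphate cotransporter, fell by 1.54 and 2.18, and RNF128, a membrane-bound ubiquitin ligase, fell by 1.73 and 1.60. HEPH, a copper-dependent iron oxidase, fell by 1.52 and 1.34.

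In other shared falls the size differed between the knockdowns or the controls were far apart. TMEM156, a transmembrane protein, fell from 7.93 and 7.97 to 6.56 and 6.72 with shEZH2 and from 8.66 and 8.63 to 5.97 and 5.91 with shEED. Its fall was larger with shEED by 1.39 (limma adjusted p = 3.26e-05), and the direct difference was 0.70. CALB1, a calcium-buffering protein, had a signal of 9.38 and 9.25 in set a but 6.99 and 6.93 in set b and 7.35 and 7.55 with the empty vector. Both knockdowns ended at a like level, 5.68 and 5.602 with shEZH2 and 5.42 and 5.45 with shEED, so its changes of -3.68 and -1.53 differed while the direct difference, 0.21, was not called (limma adjusted p = 0.129). SLC6A14, an amino acid transporter, likewise differed between set a (9.22 and 9.08) and set b (10.76 and 10.71). It fell by 1.91 with shEZH2 and 2.80 with shEED, with a direct difference of the other sign, -0.70, and the difference of 0.89 (limma adjusted p = 0.0302) was lost without any 1 of set a array 1 or 2, set b array 1 or 2, shEED array 2 or shEZH2 array 1 (0.66 to 0.96). PLA2G2A, a secreted phospholipase named here after its values were seen, fell by 4.16 with shEZH2 and 1.29 with shEED.

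The named shared rises included MT1M and MT1E, which encode metallothioneins, small metal-binding proteins. MT1M had a signal of 6.404 and 6.21 in set a and 7.82 and 7.58 with shEZH2, and of 7.02 and 7.35 in set b and 10.29 and 10.17 with shEED. The rise was 1.39 (SE 0.15) with shEZH2 and 3.04 (SE 0.15) with shEED, and the difference of -1.65 was called (limma adjusted p = 7.65e-04). Set a lay below set b by 0.88 for MT1M (-0.88), and the direct difference was -2.53. MT1E went from 7.29 and 7.14 to 8.23 and 8.40, and from 7.19 and 7.49 to 8.74 and 8.72. Of 9 metallothionein and zinc genes tested, 5 were called higher with shEZH2 and 7 with shEED, against 8.4% and 7.8% of all 11145 tested genes, and none was called lower. The shEZH2 count was 3 without set a array 2 and 3 with the sets swapped. Their median change was 0.44 and 0.79. Metallothionein transcripts are alike in sequence, and how far their probes share signal was not tested.

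TRPC1, a cation channel subunit, rose by 1.59 with shEZH2 and 1.52 with shEED, from 4.12 and 4.24 to 5.89 and 5.66 and from 5.13 and 5.08 to 6.60 and 6.64. Set a lay below set b for TRPC1 (-0.92), and the shEZH2 arrays lay below the shEED arrays by a like amount (direct difference -0.85, limma adjusted p = 6.55e-04). INA, a neuronal intermediate filament, rose by 1.44 (SE 0.18) and 1.04 (SE 0.18), to 7.71 and 7.05 with shEZH2 and 6.30 and 6.64 with shEED; its highest control was 6.03. CALCA, which encodes calcitonin and a related neuropeptide, rose by 1.29 and 1.20, and its direct difference was -0.01. GRAMD1B, a sterol transporter between membranes, rose by 1.27 and 1.11. SPART, a protein of lipid droplets and endosomes, rose by 1.59 and 1.05, and HYCC1, a part of a plasma membrane lipid kinase complex, by 1.79 and 1.07. For HYCC1 the shEED arrays cleared the highest control by 0.05.

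The rises common to both knockdowns were moderate. The median shared rise was 0.63 with shEZH2 and 0.52 with shEED, and the median shared fall was 0.60 and 0.85 in size (-0.60 and -0.85), beside medians of 0.01 and 0.02 over all tested clusters. A change of at least 1 log2 unit under both knockdowns was seen for 9 of the 143 rises and 18 of the 137 falls. Of the shared clusters, 15 rises and 40 falls were also called in the difference of changes, so being shared did not mean being equal in size.

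**Figure D3:**
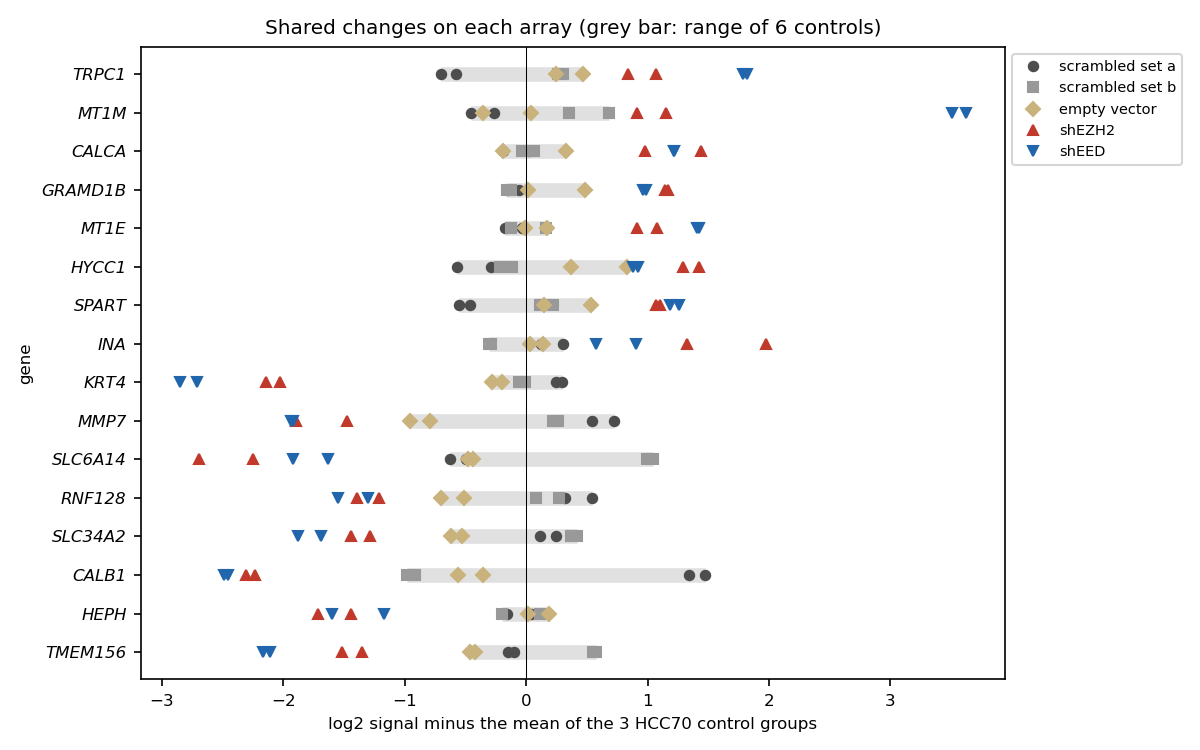
Log2 signal of the 16 named shared genes on each of the 10 HCC70 arrays (horizontal axis, minus the mean of the 3 control groups; 1 gene per line); grey bars span the 6 controls. All 4 knockdown arrays lie right of the bar for the upper 8 genes and left of it for the lower 8, and MT1M lies furthest right with shEED.

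Promoter sequence, which the rule did not use, is described here without a test. In RefSeq sequence (GRCh38.p14) from 250 bases before to 50 bases after the start, an observed over expected CpG ratio of at least 0.6 was found for 52.8% of 108 genes with a shared fall. The share was 83.9% of 87 genes with a shared rise and 83.5% of the 9078 tested genes with a promoter entry. Shares were low too for EED-only falls (60.5% of 124), EZH2-only rises (63.7% of 91) and opposite genes higher with shEZH2 (53.3% of 30). They were 82.8% of 29 EZH2-only falls, 89.2% of 93 EED-only rises and 100% of 7 opposite genes lower with shEZH2. A low share was thus not particular to the shared falls. The 250 bases before the start of KRT4 and MMP7 (falls) and INA (rise) are shown 5′ to 3′ as examples of few and many CpG pairs, with CpG pairs in capitals.
KRT4, chr12:52814117-52814366, minus strand: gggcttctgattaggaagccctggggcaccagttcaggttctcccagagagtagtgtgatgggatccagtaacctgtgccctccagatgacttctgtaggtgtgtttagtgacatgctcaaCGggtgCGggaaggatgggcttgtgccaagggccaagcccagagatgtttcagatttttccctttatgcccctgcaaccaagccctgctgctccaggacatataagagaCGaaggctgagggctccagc
MMP7, chr11:102530748-102530997, minus strand: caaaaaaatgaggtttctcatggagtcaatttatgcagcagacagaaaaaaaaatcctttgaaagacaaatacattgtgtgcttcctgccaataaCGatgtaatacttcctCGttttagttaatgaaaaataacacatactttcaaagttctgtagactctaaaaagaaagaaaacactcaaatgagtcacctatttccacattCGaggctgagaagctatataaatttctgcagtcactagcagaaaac
INA, chr10:103276888-103277137, plus strand: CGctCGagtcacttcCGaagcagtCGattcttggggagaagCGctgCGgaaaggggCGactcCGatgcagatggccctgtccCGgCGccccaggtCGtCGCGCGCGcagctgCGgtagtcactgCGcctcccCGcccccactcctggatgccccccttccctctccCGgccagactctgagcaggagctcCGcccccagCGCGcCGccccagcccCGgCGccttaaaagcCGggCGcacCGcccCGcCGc
The printed bases of KRT4 and MMP7 hold 3 CpG pairs each and those of INA hold 30. Exceptions existed both ways. The same window of SLC34A2, a fall, holds 33, and those of the rises CALCA and SPART hold 11 and 5. INA holds the most among the named shared rises with a promoter entry. The composition describes the sequence and is not a measurement of Polycomb binding.

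The shared changes were looked for in MDA-MB-468, whose arrays the rule did not use. There, shEZH2 against scrambled shRNA called 1343 clusters (8.3%), 442 higher (2.73%) and 901 lower (5.57%). Of the 137 shared falls, 29 (21.2%) were also called lower in MDA-MB-468 and 5 were called higher. SLC34A2 fell by 1.21 there (limma adjusted p = 3.34e-04), TMEM156 fell by 0.35 and KRT4 fell by 0.38. Of the 143 shared rises, 12 (8.39%) were called higher and 14 lower. MT1E rose by 0.79 there (limma adjusted p = 0.00888), while TRPC1 changed by -0.07 and INA by 0.42, neither called. The median change in MDA-MB-468 was -0.10 for the shared falls and -0.05 for the shared rises, beside -0.02 over all tested clusters. The HCC70 change minus the MDA-MB-468 change was called higher for 97 of the 143 shared rises (background 8.97%) and lower for 75 of the 137 shared falls (background 4.27%). The HCC70 side of that difference chose the members, so nothing is read from those counts. In the second line, shared falls called lower and shared rises called higher were both above the background shares. More shared rises were called lower there than higher, and most shared changes were not called. The shared falls include EZH2 itself, the target of shEZH2 in both lines.

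EZH2 cDNA in HCC70 gave few calls, 158 (0.977%), of which 147 were higher (0.909%) and 11 lower (0.068%) than with the empty vector, and EZH2 signal itself rose by 0.29 without being called (limma adjusted p = 0.0961). Of the 137 shared falls, 13 (9.49%) were called higher with EZH2 cDNA and 2 lower, with the higher ones including TMEM156 (0.70, limma adjusted p = 0.00306) and SLC34A2 (0.59, limma adjusted p = 0.0475). The empty vector arrays are part of the range rule, so this comparison is not fully independent of it. The range rule asks a shared fall to lie below the empty vector, which does not fix the sign of the cDNA change.

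Interferon response genes, which are switched on by type I interferon and defend against viruses, had the largest median difference of changes of the gene lists, although keratinocyte differentiation genes had a larger median in the direct comparison (1.39 against 0.83). Of 39 tested, 35 were called higher with shEZH2 and none lower, and 24 were called lower with shEED and none higher. The difference of changes was called higher for 33, against 5.55% of all tested genes, with a median of 1.31 beside 0.02 over all genes. IFIT1, an inhibitor of viral RNA translation, had a signal of 8.78 and 8.66 in set a, 10.42 and 10.77 with shEZH2, 9.84 and 9.88 in set b, 8.96 and 8.82 with shEED, and 10.06 and 10.06 with the empty vector. It rose by 1.87 (SE 0.14) with shEZH2 and fell by 0.97 (SE 0.14) with shEED, a difference of 2.85 (limma adjusted p = 7.36e-06).

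The control sets were part of this pattern. Set a was called lower than set b for 24 of the 39 genes (background 17.6%), by a median of -0.45, and for IFIT1 by -1.14. The shEED arrays of IFIT1 lay within the control range, close to set a, and the shEZH2 arrays lay 0.36 above the highest control. Directly compared, shEZH2 was called higher than shEED for 34 of the 39 genes (background 15.4%), with a median of 0.83 and 1.71 for IFIT1. With both scrambled sets as the control, 33 were called higher with shEZH2 and 16 lower with shEED. With the sets swapped the counts were 22 and 6, and IFIT1 then changed by 0.17 with shEED. Leaving out 1 array gave 29 to 34 rises with shEZH2 and 16 to 24 falls with shEED, the lowest of the latter without shEED array 1.

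Other members of this group followed the same order. IFI44L had 9.12 and 8.89 in set a, 10.78 and 10.54 with shEZH2, 10.002 and 9.93 in set b and 9.06 and 9.03 with shEED. OAS2, a sensor of double-stranded RNA, rose by 1.75 with shEZH2, with a direct difference of 1.62, and MX2, an antiviral GTPase, rose by 1.68 with a direct difference of 1.504. XAF1, a pro-apoptotic interferon target, cleared the control range by only 0.04 on the shEZH2 arrays. By kind, 18 of the 39 were EZH2-only rises, 7 were opposite changes higher with shEZH2 and 3 were EED-only falls. Of all 11145 tested genes, these kinds held 113, 40 and 155. TRIM22 was among the EED-only falls, at 7.46 and 7.37 in set b and 6.49 and 6.59 with shEED, but it cleared the lowest control by only 0.03 because set a was also low, at 6.62 and 6.68.

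RTP4, a chaperone of membrane receptors and an interferon target, was a member with little difference between sets. It had 7.67 and 7.75 in set a, 7.84 and 7.82 in set b, and 7.97 and 7.80 with the empty vector. With shEZH2 it rose to 8.79 and 8.91 and with shEED it fell to 7.06 and 7.14, a rise of 1.14 (SE 0.09) and a fall of 0.73 (SE 0.09), each beyond all 6 controls. The difference between the scrambled sets was -0.12 for RTP4 and was not called (limma adjusted p = 0.333), and the direct difference was 1.75.

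The interferon-stimulated response element, the sequence through which interferon switches genes on, was then counted in the promoters, as a description with no test. The motif searched was a pair of TTTC runs with any 2 bases between them, on either strand, from 250 bases before to 50 bases after the start. It was found in 15 of 91 EZH2-only rises (16.5%), 5 of 30 opposite genes that were higher with shEZH2 (16.7%) and 0 of 87 shared rises. It was also found in 6 of 124 EED-only falls (4.84%), 3 of 108 shared falls (2.78%) and 1 of 93 EED-only rises (1.08%). The 29 EZH2-only falls and the 7 opposite genes lower with shEZH2 held 0. The shares were 2.74% of all tested genes with a promoter entry and 3.65% of all 27303 promoters in the table. Of the interferon list itself, 20 of 32 promoters (62.5%) held it, and the list overlaps the EZH2-only rises. The 250 bases before the start are shown for IFIT1, IFI44L and RTP4, with the motif or its reverse complement in capitals.
IFIT1, chr10:89392373-89392622, plus strand: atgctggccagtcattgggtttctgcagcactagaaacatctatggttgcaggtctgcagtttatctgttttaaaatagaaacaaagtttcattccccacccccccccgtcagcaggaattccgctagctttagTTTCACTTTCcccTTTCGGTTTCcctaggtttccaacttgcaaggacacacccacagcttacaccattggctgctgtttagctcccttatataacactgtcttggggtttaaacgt
IFI44L, chr1:78620198-78620447, plus strand: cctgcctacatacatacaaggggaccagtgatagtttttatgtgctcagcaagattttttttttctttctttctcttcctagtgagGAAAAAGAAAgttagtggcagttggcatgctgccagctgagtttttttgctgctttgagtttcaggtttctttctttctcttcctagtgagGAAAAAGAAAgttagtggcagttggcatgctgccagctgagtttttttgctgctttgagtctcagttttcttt
RTP4, chr3:187368135-187368384, plus strand: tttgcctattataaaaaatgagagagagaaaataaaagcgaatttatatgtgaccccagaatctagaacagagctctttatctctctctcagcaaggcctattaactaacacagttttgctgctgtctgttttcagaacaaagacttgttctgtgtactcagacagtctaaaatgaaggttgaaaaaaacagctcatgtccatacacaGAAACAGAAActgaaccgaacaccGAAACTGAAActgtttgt
Each holds 2 copies. The same 250 bases of PLXDC2, COL12A1 and XAF1 (EZH2-only rises) and of SLC1A3 and FUT8 (opposite genes) hold 0 copies. A match describes the letters and is not a measured binding site.

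Several named EZH2-only rises lay outside the interferon list. C1S, a protease of the classical complement pathway, had 6.46 and 6.30 in set a and 9.07 and 8.61 with shEZH2, against 7.02 and 7.002 in set b and 6.84 and 6.64 with shEED. It rose by 2.46 (SE 0.15) with shEZH2 and changed by -0.27 with shEED, which was not called, and its direct difference was 2.10. PLXDC2, a transmembrane receptor, rose from 7.68 and 7.54 to 9.73 and 9.53, and COL12A1, a collagen that coats fibrils, from 6.63 and 6.53 to 8.53 and 8.21. Both were also called lower with shEED (-0.58 and -0.67), with shEED arrays inside the control range. This was so for 23 of the 130 EZH2-only rises. S100A8, a calcium-binding alarmin, rose by 1.70 with shEZH2 and changed by -0.16 with shEED.

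With each knockdown against its own set, EZH2-only falls were fewer and smaller than the rises, apart from AKR1C2. That falls were fewer depended on the control set. Rises were 463 of 962 EZH2-only changes with both scrambled sets as the control, and 425 of 904 with the sets swapped. AKR1C2, a steroid-reducing enzyme, went from 7.86 and 7.62 in set a to 5.28 and 5.0004 with shEZH2, a change of -2.60 (SE 0.16). Its shEED arrays, 7.88 and 8.02, lay among the controls, and the direct difference was -2.81. With shEED, AKR1C2 was also called lower than in set b (-0.56). That call ended with median centring and without any 1 set b or shEED array (-0.49 to -0.63). AKR1C genes are near-identical in sequence, and shared probe signal was not tested. ATP13A5, a P-type ATPase, fell by 1.10 with shEZH2 from 5.83 and 5.84 to 4.63 and 4.84.

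The other named falls were smaller. E2F2, an activator of the cell cycle, went from 8.85 and 8.93 to 8.21 and 8.16 with shEZH2 and from 8.82 and 8.79 to 9.02 and 9.11 with shEED. Its change was -0.70 with shEZH2, while the 0.26 with shEED was not called (limma adjusted p = 0.0833). The histone genes H4C3 and H4C2 fell by 0.80 and 0.54 with shEZH2, and their changes of 0.27 each with shEED were not called. H4C2 lost its call with shEZH2 without set a array 1 (-0.46). PIGW, an enzyme of membrane anchor synthesis, fell by 0.90. GPD1L, a glycerol phosphate dehydrogenase, fell by 1.11 and OTUD6B, a deubiquitinase, fell by 0.57. For GPD1L the call in the difference of changes ended without any 1 of set a array 1 or 2, set b array 1, or shEED array 1 or 2 (-0.72 to -0.89). That of OTUD6B ended without any 1 scrambled or shEED array (-0.78 to -0.84), and its fall with shEZH2 ended without set a array 1 or 2 or shEZH2 array 1 (-0.46 to -0.59).

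The EED-only rises, 104 of all 11145 tested genes, included 7 of the 31 tested genes of the unfolded protein and amino acid response list. STC2, a secreted glycoprotein induced by stress of the endoplasmic reticulum, went from 6.91 and 6.82 in set b to 8.33 and 8.28 with shEED, a rise of 1.44 (SE 0.10). With shEZH2 it had 6.88 and 6.54 against 7.11 and 7.10 in set a, a change of -0.39 that lost its call without set a array 1 or 2 or shEZH2 array 2 (-0.22 to -0.40). SLC7A11, the cystine and glutamate exchanger, rose from 8.92 and 8.93 to 9.94 and 9.92 with shEED, with 8.04 and 7.99 in set a and 7.92 and 7.64 with shEZH2. Its direct difference was -2.15, with set a below set b by 0.91 (-0.91).

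Of 31 tested unfolded protein and amino acid response genes, 12 were called higher with shEED (background 7.8%) and 1 lower, and 1 in each direction was called with shEZH2. The difference of changes was called lower for 10 and higher for 1 (backgrounds 2.16% and 5.55%), and with the sets swapped for 14 and 9. Directly 13 were lower and 6 higher in shEZH2 than in shEED (backgrounds 20.8% and 15.4%). Set a was higher than set b for 7 and lower for 3 (backgrounds 7.29% and 17.6%). The number called higher with shEED was 6 without shEED array 1 and 7 without set b array 1 or 2. The number lower in the difference was 3 to 5 without any 1 scrambled or shEED array. Other EED-only rises were NMRAL2P, a pseudogene (1.75, from 5.50 and 5.24 to 7.07 and 7.17), and ALG14, a part of the N-glycan synthesis machinery (1.34, from 7.25 and 7.34 to 8.68 and 8.58). GIPC2, a scaffold protein, rose by 1.30. PADI1, an enzyme that converts arginine to citrulline, rose by 1.52, and MTRF1, a mitochondrial release factor, by 1.08. ATG4C, an autophagy protease, rose by 0.92 but its shEED arrays barely cleared the highest control. It lost that call without shEED array 1 (0.82), and its difference of changes, -1.28, ended without set a array 2, set b array 1 or 2 or shEED array 1 (-1.17 to -1.29).

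The EED-only falls, 155 of all 11145 tested genes, included 5 of the 29 tested genes of the inflammatory list. CCL2, the monocyte chemoattractant, had 9.85 and 9.84 in set b and 6.84 and 6.76 with shEED, a fall of 3.04 (SE 0.14), and both arrays lay 0.96 below the lowest control. In the other comparison it had 7.81 and 8.03 in set a and 9.70 and 9.54 with shEZH2, a rise of 1.70 that stayed within the control range because set b was higher. Its difference of changes, 4.74, was the largest of the named genes, and the direct difference was 2.81 (limma adjusted p = 1.95e-07). The 6 controls of CCL2 themselves ran from 7.81 to 9.85.

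TFPI2, a protease inhibitor of the matrix, went from 9.14 and 9.05 to 7.04 and 7.30 with shEED, and its change of 0.45 with shEZH2 lost its call without set a array 1 or 2 or shEZH2 array 2 (0.33 to 0.47). GALNT12, a starter of mucin-type O-glycosylation, went from 7.27 and 7.23 to 4.97 and 4.93 with shEED and lay 2.00 below the lowest control. KLK10, a kallikrein of differentiating epithelium, went from 8.42 and 8.31 to 6.55 and 6.42. SLC1A1, a glutamate transporter, fell by 1.97 and BAMBI, a decoy receptor of the TGF-beta pathway, fell by 1.32. SAA2, an acute phase protein, fell by 2.30 from 8.42 and 8.36 to 6.09 and 6.09, but the empty vector arrays were nearly as low, at 6.17 and 6.42. Of 164 EED-only falls, 11 were also called higher with shEZH2.

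KIT and HEY2 had the largest differences among the opposite changes that were lower with shEZH2. KIT, a receptor tyrosine kinase that marks luminal progenitor cells of the breast, had 6.26 and 6.37 in set a and 4.40 and 4.75 with shEZH2. In the other comparison it had 7.04 and 7.16 in set b and 8.37 and 8.55 with shEED. It fell by 1.74 (SE 0.13) with shEZH2 and rose by 1.36 (SE 0.13) with shEED, a difference of -3.11 (limma adjusted p = 3.5e-06). The shEZH2 arrays lay 1.51 below the lowest control and the shEED arrays 0.73 above the highest. Set a was lower than set b by 0.78 (-0.78, limma adjusted p = 0.00142), and the direct difference was -3.89.

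HEY2, a transcriptional repressor downstream of Notch, had no difference between the sets that was called (-0.06). It went from 7.25 and 7.08 to 5.48 and 5.30 with shEZH2 and from 7.24 and 7.203 to 8.47 and 8.33 with shEED, changes of -1.77 and 1.18 (SE 0.11 each). With EZH2 cDNA, both genes were lower than with the empty vector, KIT by 1.24 (-1.24, limma adjusted p = 0.00156) and HEY2 by 0.59 (-0.59, limma adjusted p = 0.0316). In MDA-MB-468 both genes were below the floor, with KIT at 4.001 and 4.21 and HEY2 at 4.68 and 4.89 in scrambled arrays. The promoters of KIT and HEY2 are shown as those of the opposite genes with the largest differences, with CpG pairs in capitals.
KIT, chr4:54657707-54657956, plus strand: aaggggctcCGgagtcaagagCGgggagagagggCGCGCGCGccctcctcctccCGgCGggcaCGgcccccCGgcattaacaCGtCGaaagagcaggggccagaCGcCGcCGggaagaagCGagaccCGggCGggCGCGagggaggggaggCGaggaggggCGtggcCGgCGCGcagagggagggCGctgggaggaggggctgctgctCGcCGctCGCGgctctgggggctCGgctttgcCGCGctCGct
HEY2, chr6:125749382-125749631, plus strand: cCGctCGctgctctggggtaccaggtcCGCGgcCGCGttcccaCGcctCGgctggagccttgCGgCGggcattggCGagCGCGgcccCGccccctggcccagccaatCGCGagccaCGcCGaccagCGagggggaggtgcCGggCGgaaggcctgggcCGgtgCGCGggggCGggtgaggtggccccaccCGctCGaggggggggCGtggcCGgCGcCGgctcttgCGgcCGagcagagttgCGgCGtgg
The 250 bases hold 34 and 35 CpG pairs, more than those of INA and far more than those of KRT4.

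The other opposite genes were of several functions. SLC1A3, a glutamate transporter, rose by 0.51 with shEZH2, clearing the highest control by 0.06, and fell by 1.71 with shEED. BICC1, an RNA-binding protein, rose from 4.65 and 4.64 to 6.27 and 6.01 with shEZH2 and fell from 4.87 and 4.99 to 4.24 and 4.19 with shEED. FUT8, which adds core fucose to N-glycans, fell by 1.35 with shEED. Its rise of 0.46 with shEZH2 lost its call without set a array 1 or 2 or shEZH2 array 1 (0.27 to 0.52). The histone genes H1-1 and H2AC21 were lower with shEZH2 (-0.46 and -0.39) and higher with shEED (0.49 and 0.44). The H2AC21 call with shEZH2 ended without any 1 array but shEZH2 array 2 (-0.23 to -0.41), and its call with shEED without any 1 shEED or set b array (0.43 to 0.45). Replication-dependent histone genes are alike in sequence, so signal shared between copies was not told apart.

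**Figure D4:**
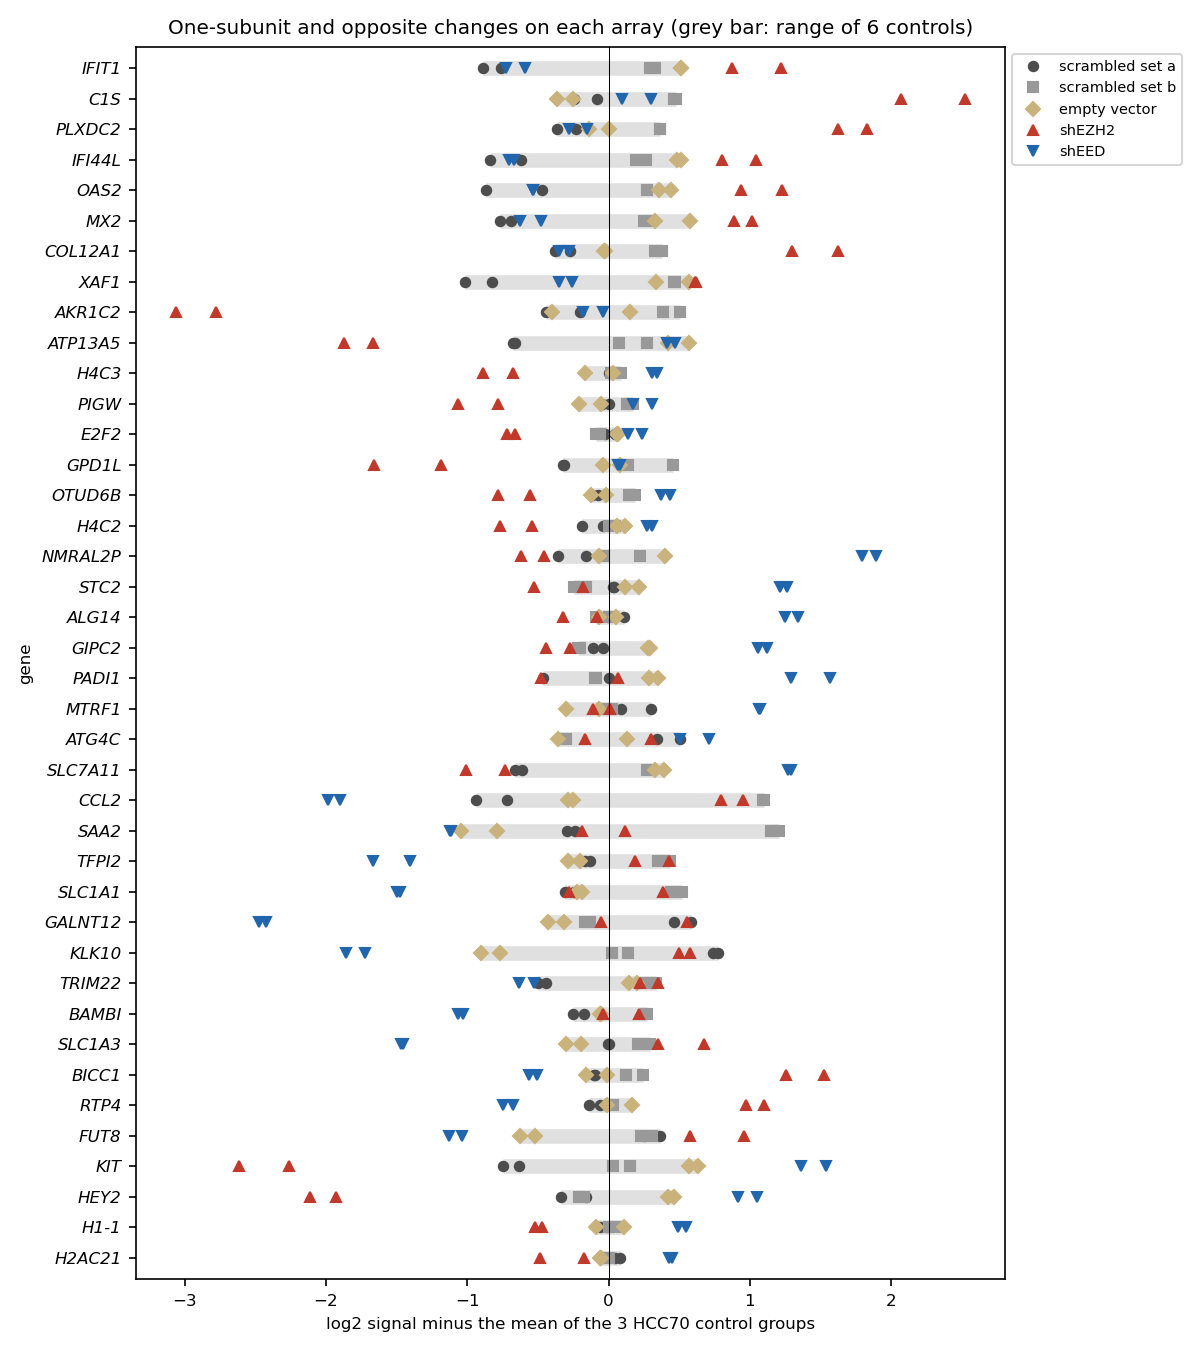
Log2 signal of the 40 named genes with a one-subunit or opposite change on each of the 10 HCC70 arrays (horizontal axis, minus the mean of the 3 control groups; 1 gene per line); grey bars span the 6 controls. Upward triangles (shEZH2) stand apart in the top 16 genes and downward triangles (shEED) in the next 16, and both stand apart on opposite sides in the last 8.

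Cholesterol synthesis genes were called lower, and none higher, in counts that moved with the control set. Of 19 tested, 17 were called lower with shEED (background 9.49% of genes) and 5 with shEZH2 (4.41%). Their median changes were -1.002 and -0.31. The difference of changes was called higher for 12 (background 5.55%). The direct comparison called 7 higher and 2 lower in shEZH2 than in shEED (backgrounds 15.4% and 20.8%). MSMO1, a sterol demethylase, went to 9.65 with shEED from 11.16 (group means) and to 10.61 with shEZH2 from 10.97, with a difference of changes of 1.16 and a direct difference of 0.97 (limma adjusted p = 5.57e-04). INSIG1, the sterol sensor, ended at 8.69 with shEED and 8.98 with shEZH2, a direct difference of 0.29 that was not called (limma adjusted p = 0.0569). Set a was called lower than set b for 13 of the 19 genes (background 17.6%). With both scrambled sets as control, 15 were lower under each knockdown, and with the sets swapped 14 with shEZH2 and 12 with shEED. Leaving out 1 array gave 14 to 17 falls with shEED and 0 to 5 with shEZH2, with 0 without set a array 1, 2 without set a array 2, and 3 without set b array 1 or 2 or shEZH2 array 2. In the difference of changes 7 were called without set a array 2, set b array 1 or shEED array 1, and 2 with the sets swapped.

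Inflammatory and complement genes showed a split that leaned on the control sets. Of 29 tested inflammatory cytokine and NF-kB genes, 7 were higher and 2 lower with shEZH2, and 1 was higher and 11 lower with shEED. The shares over all tested genes were 8.4% and 4.41%, and 7.8% and 9.49%. The 11 became 7 without set b array 1, and the 2 lower with shEZH2 became 1 without set a array 1 or 2 or shEZH2 array 1. The difference of changes called 13 higher (background 5.55%), but the direct comparison called 7 higher and 8 lower (backgrounds 15.4% and 20.8%). Set a was lower than set b for 18 (background 17.6%). ICAM1, an adhesion molecule, had a difference of changes of 1.63 and ended at 7.98 with shEZH2 and 7.96 with shEED, a direct difference of 0.01. Of 15 complement and acute phase genes, 10 were called higher in the difference of changes. Directly 6 were higher and 3 lower, and 12 were lower in set a, against the same backgrounds. LTF, which encodes the iron-binding lactoferrin, had a difference of changes of 2.96 and a direct difference of 0.37 that was not called (limma adjusted p = 0.23).

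Keratinocyte differentiation genes differed between the knockdowns with either reading. Of 21 tested, 12 were called higher in the difference of changes (background 5.55%), and with the sets swapped 15 higher and 4 lower. Directly 15 were called higher and 2 lower (backgrounds 15.4% and 20.8%). Set a was itself called higher than set b for 8 and lower for 4 (backgrounds 7.29% and 17.6%). How far the direct counts hold a like difference was not tested. With shEED 10 were lower and 2 higher, the latter 0 without any 1 set b or shEED array and 1 without either set a array, and with shEZH2 6 were higher and 3 lower. KLK6 and KLK7, epidermal kallikreins, had direct differences of 1.54 and 1.93. KLK6 was lower by 1.20 (-1.20) with shEED, and KLK7 was higher by 0.75 with shEZH2. The count in the difference of changes ran from 7 to 12 with 1 array left out, the 7 without shEED array 1.

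In the lineage panel some genes were called and others were not. KIT, a member of the panel, is described above. KRT14, a basal keratin, fell by 0.82 with shEZH2 and 0.56 with shEED, with set a above set b by 0.74 and a direct difference of 0.48. KRT8, a luminal keratin, fell by 0.53 with shEED (limma adjusted p = 0.00272) and changed by 0.18 with shEZH2. KRT5 fell by 0.28 with shEED, a call that ended without any 1 shEED or set b array (-0.24 to -0.33), and changed by -0.25 with shEZH2. GATA3, a luminal transcription factor, changed by 0.21 and -0.32, neither called, with a direct difference of 0.70 (limma adjusted p = 0.00326). KRT18 changed by 0.32 and -0.17, EGFR by -0.08 and -0.13, and CDKN2A, a growth inhibitor silenced by Polycomb in many cells, by -0.02 and -0.07, none called. ALDH1A3, an enzyme used as a progenitor marker, fell by 0.40 with shEED. Its difference of changes, 0.42, lost its call without any 1 array but shEZH2 array 2 (0.39 to 0.45), and the direct difference had the other sign, -0.54.

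The lineage lists are read against all tested genes, of which 8.4% were called higher and 4.41% lower with shEZH2, and 7.8% higher and 9.49% lower with shEED. Of 14 mature luminal markers, 9 were called lower with shEED and 3 with shEZH2, with none higher. The 9 became 5 without any 1 set b or shEED array. Of 20 basal and myoepithelial markers, 7 were lower with shEED, and 5 were lower and 2 higher with shEZH2. Of 16 luminal progenitor markers, 7 were lower and 1 higher with shEED, and 4 were lower and 2 higher with shEZH2. These progenitor counts moved with the control set. Set a was lower than set b for 12 of the 16 (background 17.6%), and directly 4 were higher and 4 lower (backgrounds 15.4% and 20.8%). With the sets swapped, 3 were lower and 6 higher with shEED, and 10 were lower and 0 higher with shEZH2. CRYAB, a small heat shock protein of basal cells, was lower under both (-1.07 and -2.14), and CLDN8, a tight junction protein, likewise (-0.84 and -1.37, with set a below set b by 1.16 (-1.16) and a direct difference of -0.63). Of 16 mesenchymal markers, 8 were higher and 2 lower with shEZH2, and none was higher and 4 lower with shEED. The 4 became 2 without set b array 1, and the 2 lower with shEZH2 became 0 without set a array 1 and 1 without set a array 2 or shEZH2 array 2. The 2 basal markers higher with shEZH2 became 1 without set a array 1 or 2 or shEZH2 array 1, and the 2 progenitor markers became 1 without set a array 2. FN1, a matrix glycoprotein, had a difference of changes of 1.66, but set a was lower than set b by 1.88 (-1.88) and the direct difference, -0.23, was not called.

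Genes listed as Polycomb targets in cancer cells moved both ways. Of 23 tested, 5 were higher and 4 lower with shEZH2, and 1 was higher and 7 lower with shEED, against the same shares over all genes. The 4 became 1 without set a array 1 and 2 without set a array 2 or shEZH2 array 2, the 7 became 4 without set b array 1 or shEED array 2, and the 1 became 0 without set b array 1 or 2 or shEED array 1. SFRP2, a modulator of Wnt signalling, rose by 1.36 with shEZH2 and fell by 0.72 with shEED, with a direct difference of 1.24. TIMP3, a metalloproteinase inhibitor, rose by 0.78 and fell by 0.77, with a direct difference of 1.11. DKK1, a Wnt inhibitor, showed how far a control set can reach, since its difference of changes was 1.28 and its direct difference -1.08, with set a lower than set b by 2.36 (-2.36). Of 11 HOX genes tested, 2 were lower and none higher with shEZH2, and 1 was higher and 1 lower with shEED. The 2 HOX falls became 0 or 1 without any 1 of the 8 arrays, and the 1 with shEED became 0 without set b array 1 or shEED array 2.

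Cell cycle genes were called higher with shEED in 15 of 47 (background 7.8%) and lower in 2. With shEZH2 1 was called in each direction. Without set b array 1 or 2 the rises with shEED numbered 6 and 7, and without shEED array 1 or 2 they numbered 8 and 4. The difference of changes was called lower for 3, E2F2 among them, and for 1 without any 1 scrambled or shEED array, and the direct comparison called 19 lower and 1 higher in shEZH2 than in shEED (background 20.8% lower). MAP kinase feedback genes had 7 higher (4 without set b array 1) and 1 lower in the difference of changes (backgrounds 5.55% and 2.16%). Directly 4 were higher and 10 lower (backgrounds 15.4% and 20.8%), and 14 of 19 were lower in set a (background 17.6%). CCND1, cyclin D1, was lower by 0.84 (-0.84) with shEED and changed by 0.03 with shEZH2, with a direct difference of 0.20 that was not called (limma adjusted p = 0.0823).

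**Figure D5:**
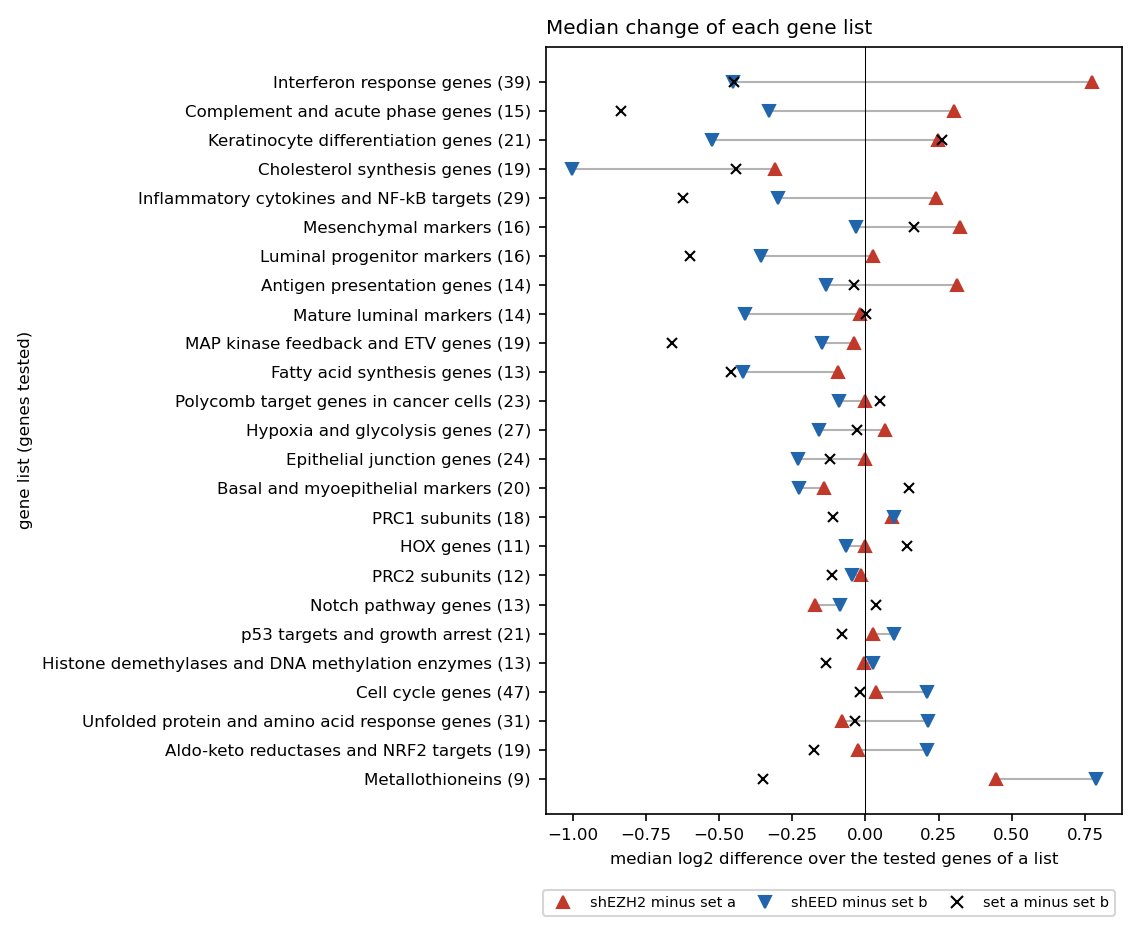
Median log2 difference (horizontal axis) over the tested genes of 25 gene lists (vertical axis, genes tested in brackets) for shEZH2 minus set a, shEED minus set b and set a minus set b. Interferon response genes have medians of 0.77, -0.45 and -0.45, cholesterol synthesis genes -0.31, -1.002 and -0.44, and metallothioneins 0.44, 0.79 and -0.35.

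The one-subunit kinds were also set beside the second line. Of the 49 EZH2-only falls, 13 (26.5%) were called lower in MDA-MB-468 with shEZH2 (background 5.57%) and 1 higher. Of the 130 EZH2-only rises, 8 (6.15%) were called higher (background 2.73%) and 19 lower. Of the 39 interferon genes, 2 were higher and 6 lower there, against 2.16% and 6.75% of all tested genes. With EZH2 cDNA, 19 of the 164 EED-only falls (11.6%) were called higher than with the empty vector (background 0.909%), and none was lower. These included KLK10 (1.36, limma adjusted p = 1.38e-04), KLK6 (1.16), SAA2 (1.21), CCL2 (1.01) and TFPI2 (0.81). For KLK10 the cDNA comparison and the shEED comparison thus went in opposite directions, from different controls. The empty vector arrays of KLK10, KLK6 and SAA2 were the lowest of the 6 controls, and that same pair bounds the range these falls had to pass.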

How the data were processed

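Gene-level array values were used for 16 arrays (Affymetrix Human Gene 1.0 ST; 8 groups of 2). The deposited values are log2 signals that the authors made with RMA in Affymetrix Expression Console, per the submitters' processing notes; no version is given there. RMA makes the arrays' distributions alike, so a change of most transcripts in one direction would be reduced. Arrays carry no read depth, and 2 arrays per group limit the precision. Of 33297 clusters, 19460 had 1 gene symbol in the platform annotation, 1754 several and 12083 none; 19429 symbols were found in RefSeq (GRCh38.p14).

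limma 3.58.1 in R 4.3.3 was fitted with 8 group means on all 16 arrays and empirical Bayes variances (8 residual and 3.69 prior degrees of freedom). Adjusted p-values are Benjamini-Hochberg over the 16175 tested clusters of each comparison, called under 0.05. No array was dropped or imputed. A cluster that met both a one-subunit and the opposite rule was counted as opposite (54 clusters). On simulated data of this size with known differences of differences, 16% were recovered at 0.5, 70% at 1, 96% at 2 and 86% at -1, with 6 false calls.

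Genes named are the PRC2 subunits, the lineage panel, the 8 shared and one-subunit genes per direction with the largest changes, the 4 opposite genes per direction, and up to 4 per gene list called in the difference of differences or in both comparisons. Shared genes were ranked by the smaller of the 2 changes and the others by the difference of differences, among clusters with 1 symbol and a knockdown or own-control group mean at log2 6 or above. Other names (PLA2G2A, CSF1R and the genes at the edge of the range) were chosen after their values were seen. The members and gene lists were chosen with earlier results of these data known. Same-numbered arrays did not deviate together between groups (r from -0.044 to 0.077), so no replicate block was used. Alternatives were other control sets, no floor, median centring, quantile normalization, a replicate block and leaving out each array.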

Additional observations from a re-analysis of the deposited data

Results flagged for a closer look

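In 14 of the 16 named shared genes the fitted difference between the EZH2 knockdown effects in HCC70 and MDA-MB-468 passed the threshold. These genes were chosen for large changes in HCC70, so the HCC70 side of the difference is fixed by the choice, and nothing is read from that count. The values are the HCC70 change minus the MDA-MB-468 change on the log2 scale. Among the rises these were TRPC1 (1.67, SE 0.19), MT1M (1.43, SE 0.22), CALCA (1.02, SE 0.25), GRAMD1B (1.34, SE 0.19), HYCC1 (1.82, SE 0.21), SPART (1.74, SE 0.17) and INA (1.02, SE 0.26). Among the falls they were KRT4 (-1.98, SE 0.12), MMP7 (-2.43, SE 0.19), SLC6A14 (-2.25, SE 0.21), RNF128 (-1.90, SE 0.19), CALB1 (-3.53, SE 0.14), HEPH (-1.43, SE 0.26) and TMEM156 (-0.96, SE 0.12). The limma adjusted p-values ran from 2.38e-07 for CALB1 to 0.0245 for INA.

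In MDA-MB-468 the shEZH2 change was -0.07 for TRPC1, -0.04 for MT1M, -0.03 for HYCC1, 0.11 for MMP7 and 0.33 for SLC6A14, none of them called. CALB1 and HEPH, which fell in HCC70, had MDA-MB-468 means under the floor of 6 in scrambled cells already, which leaves little room to see a fall. TRPC1, MT1M, CALCA and SPART, which rose in HCC70, had MDA-MB-468 means under the floor with and without shEZH2. KRT4 and TMEM156 fell in both lines, by 0.38 and 0.35 in MDA-MB-468. The other two, MT1E (0.31, limma adjusted p = 0.341) and SLC34A2 (-0.33, limma adjusted p = 0.223), were called in MDA-MB-468 in the same direction as in HCC70. EED was not knocked down in MDA-MB-468. Groups of 2 arrays are too small to test for an outlying array.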

How the results depend on the processing

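The set of scrambled arrays used as the control moved the counts most. With the sets swapped between the knockdowns, the calls numbered 4325 with shEZH2, 5940 with shEED and 6843 in the difference of differences, with 904 EZH2-only, 1479 EED-only and 279 opposite changes. With both sets as the control they numbered 3048, 4465 and 5169, with 491 shared, 962 EZH2-only, 1577 EED-only and 214 opposite changes. With all 6 controls, a setting chosen after seeing the data, they numbered 3812, 4149 and 5169, with 543, 1104, 1552 and 257. Where both knockdowns share a control, the difference of differences is the direct comparison, so 5169 is that count by construction. The one-subunit rule then asks the same test again, so its counts there come from a looser rule. Of the 280 shared clusters, 215 were shared again with swapped sets and 275 with both sets; of the 179 EZH2-only, 98 and 152; of the 296 EED-only, 168 and 264; of the 54 opposite, 44 and 54. Without the floor, MDA-MB-468 had 848 calls and EZH2 cDNA 88. With median centring the difference of differences had 677 calls and EZH2 cDNA 88, with 108 EZH2-only, 187 EED-only and 33 opposite changes.

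Leaving out 1 array gave 688 to 1977 calls with shEZH2, 1013 to 2729 with shEED, 461 to 1522 in the difference of differences, 2926 to 5359 directly, 1604 to 4355 between the scrambled sets, 899 to 1836 in MDA-MB-468 and 87 to 208 with EZH2 cDNA. Shared changes ran from 162 to 332, EZH2-only from 81 to 286, EED-only from 124 to 365 and opposite from 24 to 87. With the replicate number as a block there were 301 shared, 178 EZH2-only, 332 EED-only and 63 opposite changes, and 1133 calls in the difference of differences. The block ended the H2AC21 call with shEZH2 and added calls for CLDN8 and SLC34A2 in the difference of differences and for PHF1 and PHF19 with shEED.

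Sign changes were counted for values called in the main or the alternative setting, and not for values called in neither. Counted this way, single values changed sign only under another control set, by construction of the control, and in no other setting run. With both sets, these were LCOR (-0.31 with shEZH2, 0.30 with shEED), SAA2 (-0.49 with shEZH2) and ALDH1A3 (-0.46 with shEZH2, 0.079 with shEED), and in the difference of differences TRPC1 -0.85, SLC6A14 -0.70, CALB1 0.21, ALDH1A3 -0.54, KRT14 0.48, DKK1 -1.08, MFGE8 -0.31, CLDN8 -0.63, FN1 -0.23 and DDIT4 0.65. With swapped sets and shEZH2, these were LCOR -0.62, EZH1 -0.26, CCL2 -0.23, SAA2 -1.21, TFPI2 -0.084, KLK10 0.46, TRIM22 -0.0098 and ALDH1A3 -0.94. With swapped sets and shEED, they were LCOR 0.61, IFIT1 0.17, PLXDC2 0.082, IFI44L 0.044, OAS2 0.13, MX2 0.18, COL12A1 0.010, XAF1 0.62, AKR1C2 0.21 and ALDH1A3 0.56. In the difference of differences with swapped sets, they were TRPC1 -1.77, SPART -0.80, XAF1 -0.47, ATG4C 0.19, MMP7 0.64, SLC6A14 -2.28, CALB1 2.56, SAA2 -0.36, ALDH1A3 -1.50, KRT14 1.23, EGFR -0.44, DKK1 -3.44, FBXO32 -0.086, LTF -2.22, LCN2 -0.27, MFGE8 -1.54, CLDN8 -1.79, MME -0.98, VIM -1.01, FN1 -2.11, HLA-DPA1 -0.46, HLA-DPB1 -0.81, ICAM1 -1.60, CFB -0.87, HMGCS1 -0.65, STARD4 -0.77, INSIG1 -0.32, DDIT4 2.36, SESN2 0.46 and MAML2 -0.010. Signals near the floor limit what can be read for low genes.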
